A study of Mus musculus with 24 samples.

Results

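Transcripts of 10 circadian clock genes, Arntl, Clock, Per2, Per3, Cry1, Cry2, Nr1d1, Nr1d2, Dbp and Tef, were followed through the differentiation of 3T3-L1 cells, a mouse embryonic fibroblast line that turns into adipocytes after hormonal induction. The genes were taken by symbol, and each was represented by the RefSeq 3′UTR entry that had most total reads on average in the 24 libraries, 1 entry for each of 10 of the 26995 gene symbols in the tables. All cells were grown with either the solvent DMSO or 0.5 µM ML-792, an inhibitor of the SUMO-activating enzyme that blocks the attachment of SUMO proteins to their targets. RNA was collected from pre-adipocytes at day −2 and at days 1, 3 and 7 after induction with dexamethasone, 3-isobutyl-1-methylxanthine and insulin, and from day 3 the cells were kept in serum and insulin alone, renewed every second day. In every group RNA was labelled with 100 µM 4-thiouridine for 45 min before harvest. A QuantSeq library thus gives total reads and, by SLAMseq, labelled reads with at least 1 T to C conversion. Labelled reads are taken to come from recently made RNA. None of the 24 libraries lacked 4-thiouridine, so conversions from other sources were not measured and low labelled shares have no known floor. Each of the 8 conditions had 3 replicates, A, B and C, of a single cell line. The hour of harvest is not given in the sources used here, so that day and hour cannot be told apart.

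The mammalian clock is a transcriptional feedback loop. The proteins ARNTL (also named BMAL1) and CLOCK form a dimer that binds E-boxes and activates the Per, Cry, Nr1d and Dbp family genes, PER and CRY proteins then repress that dimer, and the REV-ERB receptors encoded by Nr1d1 and Nr1d2 repress Arntl through a shared element with the ROR receptors. DBP and TEF are PAR bZIP factors that activate D-box genes such as Per3. Cultured fibroblasts and adipocytes hold such clocks, and glucocorticoids, cAMP and fresh serum are known to reset them.

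The sequences on which these loops act were looked for in the RefSeq promoters of the members, to show which of them carry the letters of a clock element. Each promoter spans 250 bases before to 50 bases after an annotated gene start (GRCm38.p6). Of the 10 genes, 9 had a promoter entry, with 13 entries in all. Per2 had no entry. The windows below are printed 5′ to 3′ on the strand of the gene, and capitals mark the matched letters.
Arntl, ROR/REV-ERB element, chr7:113207530-113207554, plus strand: aaggcagAAAGTAGGTCAgggacgg
Per3, D-box, chr4:151044854-151044879, minus strand: acccgcgcgTTATGTAAggtactcgg
Per3, D-box, chr4:151044807-151044832, minus strand: cgcccgcggTTATGTAAcccccgccg
Cry1, E-box, chr10:85185099-85185124, minus strand: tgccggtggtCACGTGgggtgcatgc
Cry1, variant E-box, chr10:85185118-85185143, minus strand: acacttcagaAACGTGaggtgccggt
Cry2, variant E-box, chr2:92434220-92434245, minus strand: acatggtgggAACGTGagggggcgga
Nr1d1, variant E-box, chr11:98775390-98775415, minus strand: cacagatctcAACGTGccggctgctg
Tef, E-box, chr15:81802536-81802561, plus strand: gctgtggctcCACGTGctgcagctgg
Tef, E-box of a second start, chr15:81811266-81811291, plus strand: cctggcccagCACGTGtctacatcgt
The search covered both strands. Of the 13 member entries, 3 held the E-box, 3 the variant, 1 the D-box and 1 the ROR/REV-ERB element. The entries of Clock, Nr1d2 and Dbp held none of these. The E-box CACGTG was in 7.15% of all 32851 promoters, the variant CACGTT, which reads AACGTG on the other strand, in 4.68%, the D-box TTANGTAA in 2.32% and the ROR/REV-ERB element in 0.384%. The cAMP response element TGACGTCA was in 1.79% of promoters and in no member entry. A match gives letters only, and these windows leave out distal elements.

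The libraries held 13554718 to 27013352 total reads and 115709 to 820046 labelled reads. Labelled reads made up 3.17% ± 0.486 (SD, n = 3) of the DMSO libraries at day −2 and 1.03% ± 0.0889 (SD, n = 3) at day 7. The summed normalized counts of 8 adipocyte markers went from 22830 to 24030 at day −2 to 690500 to 782700 at day 7 in DMSO and reached 907400 to 958000 in ML-792. Those of 8 pre-adipocyte markers went from 283900 to 345600 to 25590 to 38110 in DMSO, and at day 7 in ML-792 they were 45120 to 64170, wholly above DMSO. Col1a1 and Col3a1, with means of 19820 and 31160, made up most of the latter sum. Between treatments at day 7, 4 of these 8 were called higher and 1 lower (edgeR adjusted p under 0.1, 9.6% of entries called). The lower one was Dlk1, with a mean of 1483 in ML-792 and 3109 in DMSO. Of the 8 adipocyte markers, 3 were called higher (Fabp4, Cd36 and Adipoq) and 0 lower. The sums in single libraries were 25.5 to 146 for 5 macrophage markers, 0 to 20.5 for 4 endothelial and 3.49 to 179 for 4 muscle markers. Of their defining genes, Ptprc and Myh1 had no read in any condition and Cdh5 had none in 6 of 8. The macrophage marker Cd68 was called higher at day 3 in DMSO (mean 105 against 22.0 at day −2) and the muscle marker Acta1 reached 112 there from 13.2 at day 1. The part of these genes in the results was not tested. Replicate B stood apart from A and C in every condition: the chi-square per degree of freedom over genes was 10.6 to 29.5 between A and C and 36.1 to 93.9 for pairs with B. Where leaving B out changed a call, the value without it is therefore given.

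Over the DMSO course, 7 of the 10 genes differed from day −2 at 1 day or more, against 42.5% of all 26563 entries tested (edgeR, adjusted p under 0.01, here termed called). At day 1, 5 were called against 13.7% of entries: Per2 rose (5.44% of entries did) and Per3, Nr1d2, Dbp and Tef fell (8.27%). At day 3, 3 were called against 30.5%, and at day 7, 2 (Cry2 and Nr1d1, both higher, as were 15.5% of entries) against 32.6%. From day 1 to day 3, 3 rose against 18.9% of entries called and 9.03% called higher. From day 3 to day 7 none was called by edgeR against 8.77%. At that step 5 had an unadjusted edgeR p under 0.05, as did 7457 of 26563 entries. DESeq2 called 3 (Cry2, Nr1d2 and Dbp, all higher), and its share of all entries was not kept. Under ML-792, 7 of 10 differed at 1 day or more, against 47.6% of entries. There, 5 were called at day 1 (20% of entries), 5 at day 3 (34.7%) and 2 at day 7 (34.8%). From day 1 to day 3 in ML-792, 3 were called (21%), and from day 3 to day 7, 2 (10.9%). Libraries did not overlap with day −2 for 5, 5 and 6 of the 10 genes at days 1, 3 and 7 in DMSO, where 38.9%, 51.3% and 55.1% of entries did not, and for 7, 7 and 5 in ML-792, where 45.3%, 56.8% and 56.1% did not. The median log2 fold change of the 10 at day 1 was −0.52 in either course, with −0.01 in DMSO and −0.02 in ML-792 over all entries. Fewer cells of a type and less RNA per cell cannot be told apart in such samples. The methods call the replicates biological, and all are of 1 cell line, so that p-values measure the spread between its cultures.

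**Figure D1:**
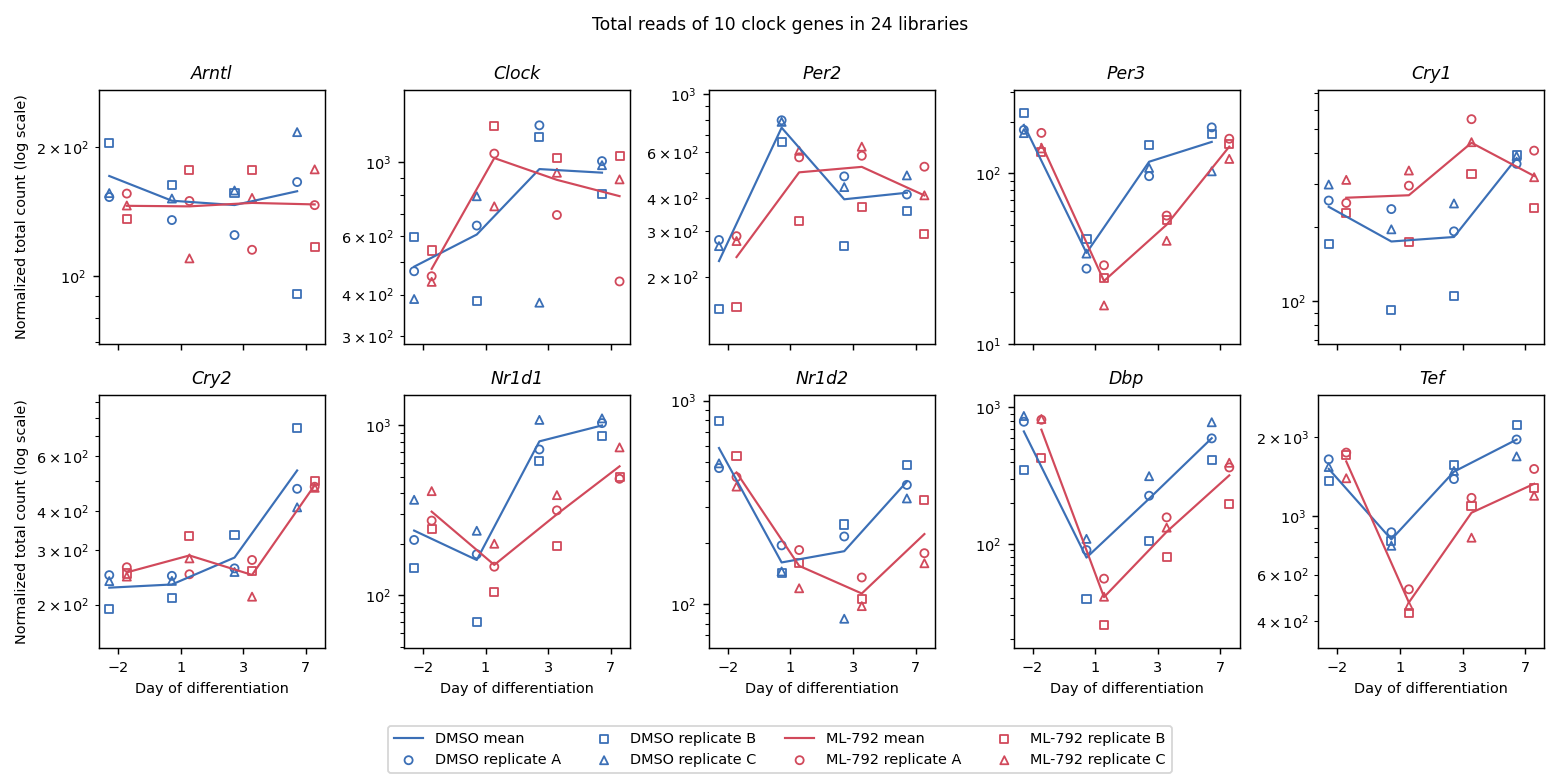
Normalized total counts (vertical axis, log scale) of the 10 genes at each day (horizontal axis) in DMSO (blue) and ML-792 (red); symbols are single libraries by replicate and lines join the means of 3. Per3, Nr1d2, Dbp and Tef lie lowest at day 1 or day 3 under either treatment, Per2 lies highest at day 1 in DMSO, and Arntl stays between 90.7 and 217 throughout.

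Arntl, the activator without which the clock stops, was level. Its entry (chr7:113313620-113314126, plus strand) held 153, 205 and 156 normalized total counts in DMSO replicates A, B and C at day −2, an order kept below, and 166, 90.7 and 217 at day 7. In ML-792 it held 156, 136 and 146 at day −2 and 147, 117 and 178 at day 7. The groups overlapped in all 10 comparisons of Arntl with day −2 or with DMSO, the log2 fold changes lay between −0.23 and 0.02 with standard errors of 0.24 to 0.28, and none was called. Means of the 4 days differed by at most 1.17-fold in DMSO and 1.02-fold in ML-792, less than the spread between replicates. Changes of about 0.5 on the log2 scale, or 2 standard errors, were not detectable at this depth of 87 to 229 reads per library. Larger changes could be missed too, since a call over days needs an adjusted p under 0.01. In DMSO, Clock at 0.98 ± 0.36 (day 3 against day −2, edgeR adjusted p = 0.041) and Cry1 at 1.06 ± 0.35 (day 7 against day 3, 0.049) were not called.

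Clock, which encodes the partner of ARNTL, had means above day −2 at every later day, with wide spread, and 1 of its 6 comparisons with day −2 was called. Its entry (chr5:76209868-76216878, minus strand) had 470, 598 and 388 normalized counts in DMSO at day −2, 646, 384 and 791 at day 1, 1293, 1193 and 378 at day 3 and 1009, 804 and 981 at day 7. With ML-792 it had 454, 543 and 437 at day −2, 1063, 1291 and 738 at day 1, 695, 1033 and 931 at day 3 and 438, 1047 and 889 at day 7. Day 7 lay wholly above day −2 in DMSO, as did days 1 and 3 in ML-792, while single libraries, DMSO replicate C at day 3 and ML-792 replicate A at day 7, stayed at the level of day −2 and DMSO replicate B at day 1, with 384, lay below every day −2 library. The rise at day 1 in ML-792 was called (log2 fold change 1.11 ± 0.28 SE, edgeR adjusted p = 0.0089). It was not called without replicate A (adjusted p = 0.04), B (0.058) or C (0.061), nor in a fit of all 24 libraries. In DMSO the changes of 0.98 ± 0.36 at day 3 and 0.94 ± 0.36 at day 7 were not called (edgeR adjusted p = 0.041 and 0.046), although the former was without replicate C (1.22, adjusted p = 0.0078).

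Per2, a repressor gene that also responds directly to glucocorticoids and cAMP, was the only one of the 10 called higher at day 1 in DMSO. Its entry (chr1:91415977-91417870, minus strand) held 277, 151 and 263 normalized counts at day −2, 796, 657 and 785 at day 1, 486, 263 and 442 at day 3 and 414, 358 and 490 at day 7. Every day 1 library lay above every library of the other days. The change at day 1 was 1.69 ± 0.26 on the log2 scale (edgeR adjusted p = 0.00023), 1.55 without replicate B (adjusted p = 8.6e-06) and 1.80 without replicate A, where it was not called (adjusted p = 0.013). With ML-792, Per2 had 287, 154 and 275 at day −2, 575, 327 and 609 at day 1, 583, 371 and 631 at day 3 and 529, 292 and 411 at day 7. Here all 3 later days lay wholly above day −2, and day 3 was called (1.15 ± 0.31, adjusted p = 0.0073), although not without replicate A (adjusted p = 0.058) or C (0.082). It was 1.11 without B (adjusted p = 3.1e-05), where days 1 and 7 in ML-792 (1.08 and 0.74, adjusted p = 8.6e-05 and 0.0015) and days 3 and 7 in DMSO (0.78 and 0.74, adjusted p = 0.0011 and 0.0015) were called too, as was the fall from day 1 to day 3 in DMSO (−0.77, adjusted p = 0.0015). At day 1 the ML-792 libraries lay wholly below the DMSO libraries, with a difference of −0.57 ± 0.29 that was not called (adjusted p = 0.39).

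Per3, a period gene driven through D-boxes, a pair of which is printed above, had its lowest level at day 1. In DMSO its entry (chr4:151003657-151008200, minus strand) had 180, 225 and 172 normalized counts at day −2, 27.6, 41.0 and 33.8 at day 1, 96.3, 147 and 108 at day 3 and 186, 170 and 103 at day 7. In ML-792 it had 173, 133 and 140 at day −2, 28.9, 24.4 and 16.8 at day 1, 56.5, 53.2 and 40.2 at day 3 and 160, 149 and 122 at day 7. Days −2 and 1 did not overlap under either treatment, and by day 7 the libraries overlapped those of day −2 again. The fall at day 1 was −2.49 ± 0.30 in DMSO (edgeR adjusted p = 2.4e-05) and −2.67 ± 0.27 in ML-792 (adjusted p = 7.3e-06), called under all 10 alternatives in each course, at −2.51 and −2.78 without replicate B. Per3 then rose by 1.77 ± 0.30 from day 1 to day 3 in DMSO (adjusted p = 0.00033, not called without replicate A, 0.016). With ML-792 it rose by 1.10 ± 0.28 to day 3 (adjusted p = 0.0082) and by 1.52 ± 0.26 from day 3 to day 7 (adjusted p = 0.0011). The former was not called without replicate A (0.064), B (0.034) or C (0.056), nor the latter without A (0.04) or C (0.022). At day 3 the ML-792 libraries lay wholly below those of DMSO (−1.22 ± 0.27, adjusted p = 0.0037), and below day −2 of their own course (−1.57 ± 0.26, adjusted p = 0.00019, and 0.01 without A). The difference between treatments at day 3 was called under all 10 alternatives, at −1.07 without replicate B (adjusted p = 0.042).

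Cry1 and Cry2 encode the cryptochromes, the strongest repressors of the activating dimer. Cry1 (chr10:85131700-85132307, minus strand) had 257, 172 and 298 normalized counts in DMSO at day −2, 237, 92.0 and 196 at day 1, 193, 106 and 250 at day 3 and 362, 394 and 390 at day 7. With ML-792 it had 251, 228 and 312 at day −2, 295, 175 and 340 at day 1, 550, 329 and 444 at day 3 and 410, 241 and 320 at day 7. No day was called against day −2 in either course by edgeR, with 1 (day 3 in ML-792) at an unadjusted p under 0.05, and none by DESeq2. Without replicate B, day 3 in ML-792 was called (0.82, adjusted p = 0.0022). At day 3 all ML-792 libraries lay above all DMSO libraries, by 1.27 ± 0.33 (edgeR adjusted p = 0.013). Cry1 was thus the one member called higher with ML-792, at 1.17 without replicate B (adjusted p = 0.00039), while without replicate A the difference of 1.12 was not called (adjusted p = 0.28).

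Cry2 (chr2:92403646-92405820, minus strand) was higher in day 7 adipocytes under both treatments. It had 249, 193 and 238 normalized counts in DMSO at day −2, 247, 210 and 238 at day 1, 262, 334 and 255 at day 3 and 472, 738 and 411 at day 7. In ML-792 the values were 264, 252 and 246 at day −2, 250, 332 and 282 at day 1, 278, 257 and 212 at day 3 and 479, 499 and 475 at day 7. Day 7 lay above every earlier library in each course. The rise over day −2 was 1.25 ± 0.23 in DMSO (edgeR adjusted p = 0.00041) and 0.93 ± 0.16 in ML-792 (adjusted p = 0.00024). The DMSO value was 0.86 without replicate B, whose 738 counts were the highest (adjusted p = 0.0011), and 1.41 without A, where it was not called (adjusted p = 0.011). The ML-792 value was 0.91 without B (adjusted p = 0.00073) and was not called without C (adjusted p = 0.011). From day 3 to day 7 Cry2 rose by 0.96 ± 0.16 in ML-792 (adjusted p = 0.00084, not called without A, 0.028, or C, 0.046). In DMSO that step was called without B (0.77, adjusted p = 0.0069). No difference between treatments was called for Cry2, the largest being 0.31 ± 0.20 at day 1 (adjusted p = 0.52).

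At day 3 in DMSO the 2 REV-ERB genes were called in opposite directions. Nr1d1, a receptor gene known to rise in adipogenesis, held 212, 145 and 365 normalized counts at day −2, 175, 70.1 and 240 at day 1, 721, 617 and 1076 at day 3 and 1030, 867 and 1098 at day 7 (chr11:98767932-98768219, minus strand). Days 3 and 7 lay wholly above days −2 and 1. The change was 1.74 ± 0.38 at day 3 and 2.05 ± 0.39 at day 7 (edgeR adjusted p = 0.0017 and 0.00043), and 2.31 ± 0.39 from day 1 to day 3 (adjusted p = 0.00033). Without replicate B these were 1.64, 1.88 and 2.11 and all were called, whereas without A the adjusted p were 0.038, 0.021 and 0.014. In ML-792 Nr1d1 had 275, 247 and 410 at day −2, 148, 105 and 201 at day 1, 316, 195 and 389 at day 3 and 485, 495 and 742 at day 7. No day was called by edgeR there, with adjusted p of 0.018 and 0.025 at days 1 and 7, which DESeq2 called. Without replicate B, the fall at day 1 was called by edgeR (−0.97, adjusted p = 0.0072), as was the rise from day 1 to day 3 (1.01, adjusted p = 0.0061). At day 3 the ML-792 libraries lay wholly below DMSO (−1.42 ± 0.38, adjusted p = 0.017), at −1.35 without replicate B (adjusted p = 0.0097) and −1.54 without A, where it was not called (adjusted p = 0.21). At day 7 they again lay wholly below, by −0.80 ± 0.37 (adjusted p = 0.25, not called).

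Nr1d2, which encodes REV-ERB beta, fell at days 1 and 3. Its entry (chr14:18204056-18206684, minus strand) had 466, 796 and 491 normalized counts in DMSO at day −2, 194, 141 and 144 at day 1, 215, 246 and 84.5 at day 3 and 385, 483 and 330 at day 7. In ML-792 it had 421, 531 and 378 at day −2, 184, 158 and 119 at day 1, 135, 105 and 97.5 at day 3 and 178, 326 and 158 at day 7. Days 1 and 3 lay wholly below day −2 under both treatments, and day 7 still did in ML-792. The log2 fold changes were −1.87 ± 0.34 at day 1 and −1.68 ± 0.34 at day 3 in DMSO (edgeR adjusted p = 0.00078 and 0.00077), and −1.53 ± 0.27, −1.97 ± 0.28 and −1.01 ± 0.27 at days 1, 3 and 7 in ML-792 (adjusted p = 0.00078, 5.4e-05 and 0.0073). Both changes at day 3 were called under all 10 alternatives. Without replicate A the adjusted p at day 1 were 0.016 in DMSO and 0.019 in ML-792, without C it was 0.017 in ML-792, and at day 7 in ML-792 it was 0.096 without A and 0.054 without C. Without B the 5 values were −1.50, −1.67, −1.40, −1.78 and −1.25, all called. At day 7 the ML-792 libraries lay wholly below those of DMSO, a difference of −0.86 ± 0.32 that edgeR did not call (adjusted p = 0.12), while DESeq2 did (adjusted p = 0.086), as did edgeR with no filter (0.026), with 1 entry per gene (0.099) and without replicate B (−1.09, adjusted p = 0.041).

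Dbp, the output gene with the widest daily swing in many tissues, had the largest fall. Its entry (chr7:45709881-45710203, plus strand) had 785, 350 and 866 normalized counts in DMSO at day −2, 90.1, 39.2 and 109 at day 1, 225, 104 and 314 at day 3 and 594, 413 and 779 at day 7. With ML-792 it had 813, 426 and 823 at day −2, 55.6, 25.6 and 41.0 at day 1, 157, 79.8 and 132 at day 3 and 363, 197 and 393 at day 7. Days 1 and 3 lay wholly below day −2 in each course. The means spanned 8.4-fold between days in DMSO and 16.9-fold in ML-792. At day 1 Dbp fell by 3.07 ± 0.46 on the log2 scale in DMSO (edgeR adjusted p = 0.00016) and by 4.07 ± 0.39 in ML-792 (adjusted p = 4e-06), and at day 3 by 1.64 ± 0.43 (adjusted p = 0.0062) and 2.48 ± 0.35 (adjusted p = 5.7e-05). Both ML-792 values were called under all 10 alternatives, whereas the DMSO values were not called without replicate A (adjusted p = 0.017 and 0.093), nor that at day 3 without C (0.02). Without B they were −3.05 and −1.62 (adjusted p = 4.1e-07 and 2e-05), and day 7 in ML-792 was called as well (−1.11, adjusted p = 6.6e-05). From day 1 to day 3 Dbp rose by 1.58 ± 0.38 in ML-792 (adjusted p = 0.0057, and 0.061 and 0.088 without A and C). Without B the same step in DMSO (1.43, adjusted p = 0.00016) and the rise from day 3 to day 7 in DMSO (1.35, adjusted p = 0.00039) and ML-792 (1.39, adjusted p = 5e-05) were called. Differences between treatments at days 1, 3 and 7 were −0.96 ± 0.48, −0.80 ± 0.44 and −0.90 ± 0.43, and none was called by edgeR (adjusted p = 0.37, 0.34 and 0.26) or DESeq2 (0.25, 0.26 and 0.21). Without replicate B all 3 were called, at −1.05, −0.90 and −0.86 (edgeR adjusted p = 0.0066, 0.0046 and 0.0057), and with no filter on low counts they were called too (0.023, 0.034 and 0.0088). With the replicate letter as a block, edgeR also called Dbp between treatments and in the interaction of day and treatment.

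Tef, the second PAR bZIP gene, was the member that differed between treatments at the most days. Its entry (chr15:81823682-81826863, plus strand) had 1645, 1357 and 1538 normalized counts in DMSO at day −2, 869, 807 and 772 at day 1, 1384, 1560 and 1486 at day 3 and 1957, 2222 and 1688 at day 7. With ML-792 it had 1745, 1706 and 1394 at day −2, 527, 427 and 456 at day 1, 1174, 1090 and 829 at day 3 and 1512, 1275 and 1196 at day 7. The treatments overlapped at day −2 and did not at days 1, 3 or 7, when every ML-792 library was the lower. Tef fell at day 1 by 0.89 ± 0.16 in DMSO (edgeR adjusted p = 0.00073) and by 1.78 ± 0.17 in ML-792 (adjusted p = 3.5e-06), the latter called under all 10 alternatives, the former not without A (0.067) or C (0.032). It rose again from day 1 to day 3, by 0.86 ± 0.16 in DMSO (adjusted p = 7e-04, and 0.032 and 0.028 without A and C) and by 1.13 ± 0.17 in ML-792 (adjusted p = 0.00014, called under all 10). In ML-792 day 3 was still below day −2 (−0.65 ± 0.16, adjusted p = 0.0049, and 0.034 and 0.035 without A and C).

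With ML-792 against DMSO, where entries were called at an adjusted p under 0.1, 4 of the 10 genes differed at 1 day or more, against 20.8% of all entries. At day −2 none did by edgeR or DESeq2, with 0% of entries called and no member at an unadjusted p under 0.05. Tef alone was called at day 1 (−0.80 ± 0.16, adjusted p = 0.0021, with 6.55% of entries) and at day 7 (−0.56 ± 0.15, adjusted p = 0.026, with 9.6%). At day 3, when 12.9% of entries were called, the 4 were Per3, Nr1d1 and Tef (−0.52 ± 0.15, adjusted p = 0.033), all lower (5.99% of entries), and Cry1, higher (6.87%). The libraries of the treatments did not overlap for 0, 3, 4 and 4 genes at days −2, 1, 3 and 7, where 5.63%, 19.3%, 22.3% and 24.3% of entries did not. Without replicate A the adjusted p of Tef were 0.1, 0.13 and 0.17 at days 1, 3 and 7, without C it was 0.41 at day 3 and 0.19 at day 7, and without B it was 0.0092, 0.047 and 0.12. The difference itself, an interaction of day and treatment, was called for Tef only by edgeR without a block (adjusted p = 0.049, with 9.66% of entries). It was not called without any one of A (0.47), B (0.22) or C (0.26). Whether the replicate letter pairs libraries is not stated. With the letter as a block, edgeR called Tef (adjusted p = 0.0027) and also Per2, Per3, Cry1, Nr1d1 and Dbp in the interaction. It also added Dbp, Nr1d2 and Per2 to the genes called between treatments. The shares of entries above are from fits without the block, and the share with it was not kept. Cry1, Nr1d1 and Per3 had interaction p of 0.019, 0.014 and 0.04 before adjustment and 0.16, 0.13 and 0.25 after. DESeq2 also called Cry1 (adjusted p = 0.089) and Nr1d1 (0.046), and without B edgeR called Cry1 (0.019) and Dbp (0.052). These comparisons share their libraries with the time courses above.

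**Figure D2:**
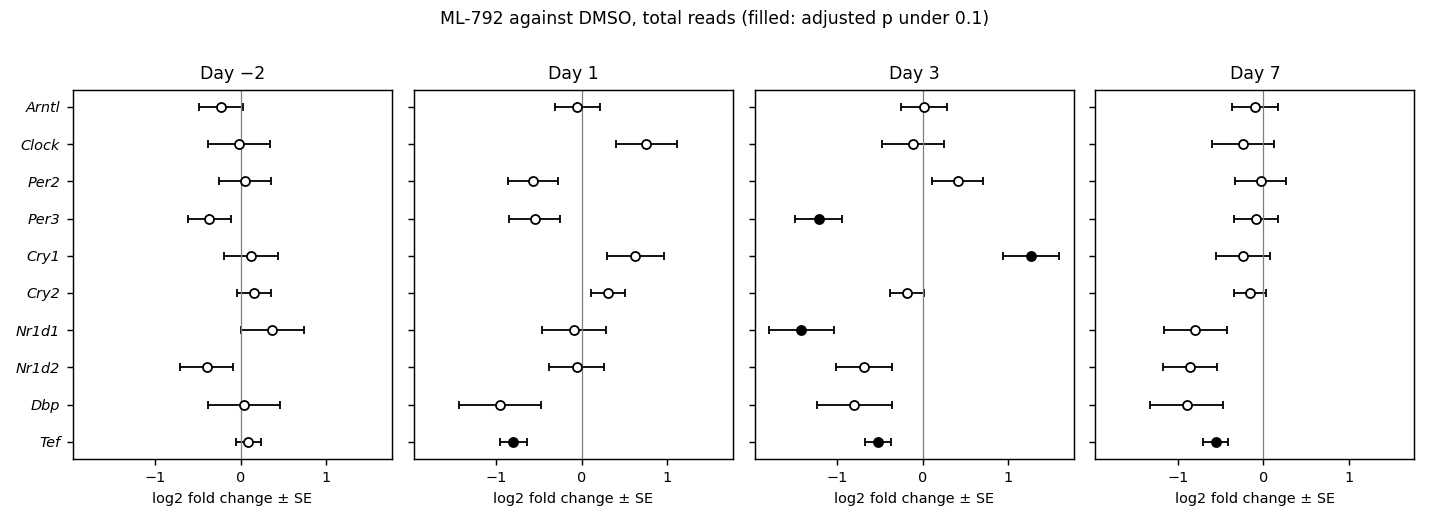
Log2 fold change of total reads between ML-792 and DMSO (horizontal axis) for each gene at each day, with 1 standard error from edgeR; filled points have an adjusted p under 0.1. All points lie between −0.40 and 0.37 at day −2, the day 3 panel holds the 4 called genes, and Tef is filled at days 1, 3 and 7.

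Labelled reads were few. Per3 and Dbp had at most 13 and 12 labelled reads in a library and did not pass the filter, so 8 genes were tested. Pooled over the 3 DMSO libraries at day −2, Per2 had the highest labelled share, 16.2% of 804 reads (exact Clopper-Pearson 95% interval 13.7% to 18.9%), which lay above 98.3% of 8081 genes. Its libraries were uneven, at 18.9%, 5.92% and 18.9%, with replicate B the low one. Cry2 (9.52%), Nr1d1 (9.25%), Arntl (8.45%), Clock (7.08%), Cry1 (6.53%), Per3 (5.26%) and Nr1d2 (3.78%) followed, all above the median gene at 2.34%. Tef had 1.62% (1.29% to 1.99%) and Dbp 0.559% (0.298% to 0.954%), above 32.3% and 5.44% of genes. The 2 PAR bZIP genes were thus the members under the median. A read can be labelled only at its T bases. These made up 23.5% of the Dbp entry, 25.9% of Cry2, 27.8% of Tef and Nr1d1, 29.9% of Per2 and 36.5% of Arntl. The values are of whole entries, and the part of T content in the shares was not tested. Intervals cover counting error only.

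**Figure D3:**
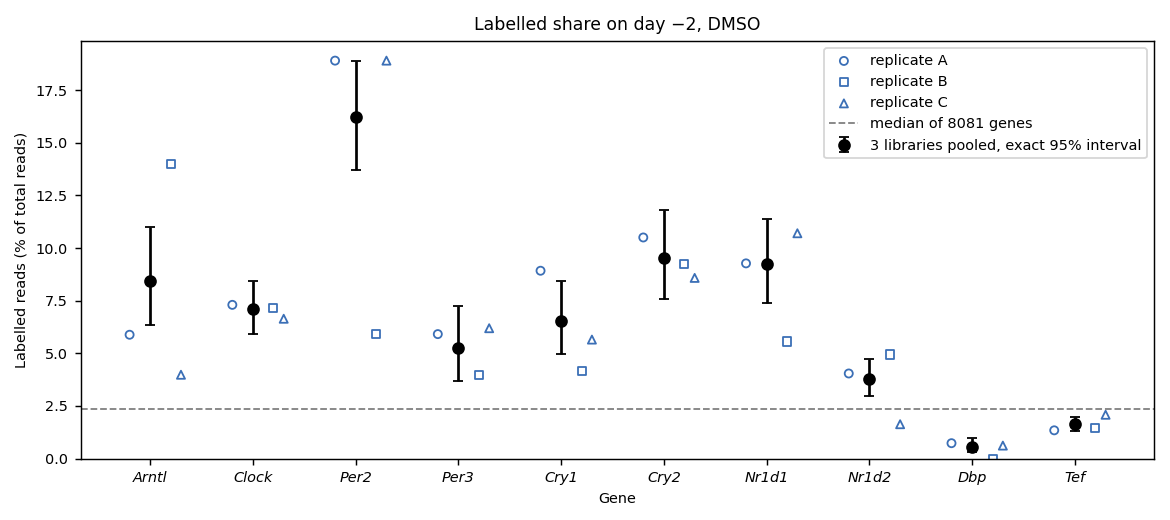
Labelled reads as a percentage of total reads at day −2 in DMSO (vertical axis) for each gene; filled circles pool 3 libraries with the exact 95% interval, open symbols are single libraries and the dashed line is the median gene. Per2 is highest at 16.2%, and Tef and Dbp lie under the line.

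Of 3 genes whose shares were tested after induction, Clock and Cry2 fell. The share of Clock fell from 7.04% ± 0.354 (SD, n = 3) at day −2 to 2.18% ± 1.01 over the 9 later DMSO libraries, and that of Cry2 from 9.46% ± 0.987 to 2.99% ± 1.53, with no overlap (exact two-sided permutation p = 0.0045, which is the lowest this design allows, adjusted p = 0.012, when 60% of 5511 genes were called). Divided by the share of its library, neither was called. The share of Tef went from 1.62% ± 0.397 to 1.18% ± 0.493, which was not called (exact permutation adjusted p = 0.27). Pooled over libraries, it was 1.62% at day −2 and 1.63% at day 7. The pooled share of Dbp was 0.559% and 0.561%, from 7, 0 and 6 labelled reads in A, B and C at day −2 and 0, 0 and 9 at day 7. Its day 7 value thus rests on replicate C alone and does not show a steady share.

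Labelled counts scaled by total reads fell for most entries, with medians over all entries of −1.27, −1.70 and −1.54 on the log2 scale at days 1, 3 and 7 in DMSO. Of the 8 tested genes, 1 was called at 1 day or more in DMSO (44.2% of entries) and 4 in ML-792 (51.2%). In DMSO, Nr1d2 had 23, 44 and 9 labelled reads at day −2, 6, 0 and 2 at day 1 and 1, 6 and 0 at day 3. These libraries did not overlap with day −2, and the changes were −3.15 ± 0.96 and −2.99 ± 0.98 (edgeR adjusted p = 0.0095 and 0.01, when 19.7% and 34.4% of entries were called, with 30.2% at day 7), which were not called without A (0.025 and 0.087), B (0.17 and 0.013) or C (0.022 and 0.035). In ML-792, Cry1 (19, 24 and 12 labelled reads at day −2 and 1, 0 and 0 at day 1), Nr1d1 (42, 17 and 43, then 8, 1 and 2) and Tef (22, 42 and 34, then 5, 4 and 1) were called lower at day 1 (adjusted p = 0.00081, 0.0014 and 0.0016), when 26.9% of entries were. Without B the adjusted p were 0.015 for Cry1 and 0.013 for Tef, and without C they were 0.01, 0.042 and 0.04 in the order above. Nr1d2 at day 3 (16, 25 and 26 labelled reads, then 5, 0 and 0, adjusted p = 0.0063, 35.1% of entries) and Tef at day 7 (adjusted p = 0.0084, 39.4% of entries) were also called, but not without B (0.066 and 0.086) or C (0.068 and 0.022), nor Tef without A (0.043). Scaled by the labelled reads of the library, none of these was called in ML-792, and in DMSO neither Nr1d2 value was (adjusted p = 0.21 and 0.31), while Tef was called higher at day 7 (1.80, adjusted p = 0.0077). Scaled by total reads and without B, Cry1 at days 1 and 7 (adjusted p = 0.0063 and 0.00093) and Per2 at days 3 and 7 (adjusted p = 0.0044 and 0.00051) were called lower in DMSO. Nr1d1 kept 23, 16 and 29 labelled reads at day 3 in DMSO against 24, 9 and 44 at day −2, a change of 0.21 ± 0.58 beside the median of −1.70.

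Between treatments, 1 of 8 genes was called in labelled reads, against 2.32% of entries at 1 day or more and 0.888%, 0.916% and 0.869% at days 1, 3 and 7. This was Tef at day 7, with 25, 33 and 29 labelled reads in DMSO and 4, 3 and 6 in ML-792, which did not overlap (−2.49 ± 0.62, edgeR adjusted p = 0.031). It was not called without A (adjusted p = 0.36), B (0.18) or C (0.26). Its labelled share was 1.65% ± 0.275 in DMSO and 0.434% ± 0.217 in ML-792 (SD, n = 3 each), a contrast for which the exact permutation test of 3 against 3 can go no lower than p = 0.1, the value it gave. Per2 at day 1 had 29, 38 and 35 labelled reads in DMSO and 8, 6 and 11 in ML-792, again without overlap, but was not called by edgeR (−1.78 ± 0.59, adjusted p = 0.16), while DESeq2 called it (0.095). The interaction was called for none of the 8 by edgeR, with 0.246% of entries called, and for Tef by DESeq2. By edgeR, 2 had an unadjusted p under 0.05, as did 855 of 10589 entries.

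Within conditions, several members deviated together with the replicate letter. Dbp and Per2 were lowest in replicate B in 8 of 8 conditions, and Cry1 and Nr1d1 in 7 of 8. Over 13331 genes, 7.86% were lowest in B in all 8 conditions and 15.5% in at least 7. Nr1d1 was highest in replicate C in all 8, and Nr1d2 lowest in C in 6. The share of all genes with such an order in C is not given, so these counts have none beside them. Over the 24 libraries, deviations from the condition means correlated by r = 0.87 between Dbp and Per2, 0.87 between Dbp and Cry1, 0.80 between Dbp and Nr1d1 and 0.79 between Cry1 and Nr1d1, and by −0.56 between Dbp and Nr1d2. These points share library and replicate letter, so that they are given as a description. Tef, the other PAR bZIP gene, had r = 0.00 with Dbp and was lowest in B in 2 of 8 conditions.

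**Figure D4:**
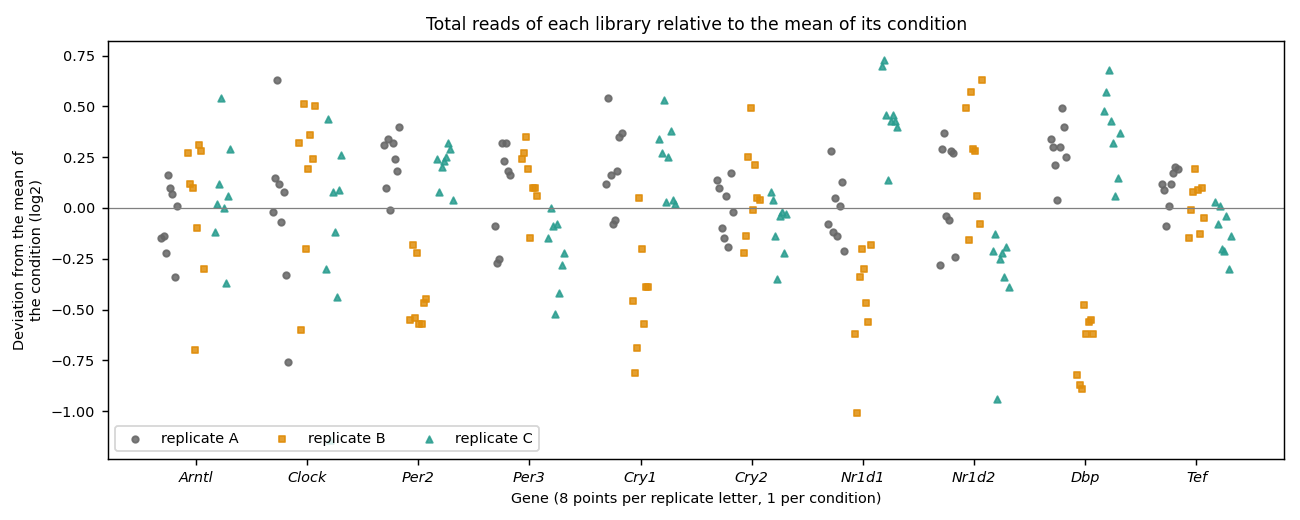
Deviation of each library from the mean of its condition in log2 total counts (vertical axis) for each gene, with 8 points per replicate letter, 1 per condition. Replicate B lies below 0 in all 8 conditions for Per2, Dbp and Nr1d1, and replicate C lies above 0 for Nr1d1.

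Of the other genes of the clock, a list of 19 that were all tested in total reads, 2 rose and 4 fell at day 1 in DMSO, when 5.44% of entries rose and 8.27% fell. At day 3 it was 3 and 2, against 30.5% of entries called, and at day 7 it was 5 and 2, against 32.6%. Of the 7 output and feedback genes 5 were called at day 1 in DMSO (13.7% of entries), and of the 8 kinase, ligase and partner genes none was called at day 1 in DMSO or in ML-792 (20% of entries) by edgeR. The alternatives were not run for these genes. Nfil3, a repressor that competes with DBP and TEF for D-boxes, rose from 517 to 867 normalized counts at day −2 to 1397 to 1747 at day 1 in DMSO (1.12 ± 0.22, edgeR adjusted p = 0.0015). Bhlhe41, an E-box repressor, fell from 365 to 634 to between 49.2 and 64.4 (−3.05 ± 0.32, adjusted p = 6.3e-06). Ciart, another repressor of the dimer, fell from between 55.5 and 74.5 to between 10.9 and 12.4 (−2.50 ± 0.38, adjusted p = 0.00017). Npas2, which can stand in for CLOCK, had at most 1.78 normalized counts at day −2 in DMSO, 4.63 to 8.75 at day 3 and 53.2 to 73.1 at day 7 (adjusted p = 2.7e-05 at day 7).

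With ML-792 against DMSO, 2 of the 19 were called at day 1 (6.55% of entries), 6 at day 3 (12.9%) and 4 at day 7 (9.6%). Noct, a gene with a circadian output in adipose tissue, had 1371 to 2234 normalized counts at day 3 in DMSO and 532 to 831 in ML-792 (−1.47 ± 0.24, edgeR adjusted p = 0.00013). Hlf, the third PAR bZIP gene, went the other way from Tef, with 11.6 to 21.9 in DMSO and 77.3 to 130 in ML-792 at day 3 (2.53 ± 0.40, adjusted p = 9.2e-05). Npas2 was also higher at day 3, at 32.6 to 42.6 against 4.63 to 8.75 (adjusted p = 0.0027). Usp2, Rora and Bhlhe40 were called lower at day 3. The interaction was called for Npas2, Noct, Bhlhe40, Rora and Usp2, or 5 of 19, against 9.66% of entries.

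**Figure D5:**
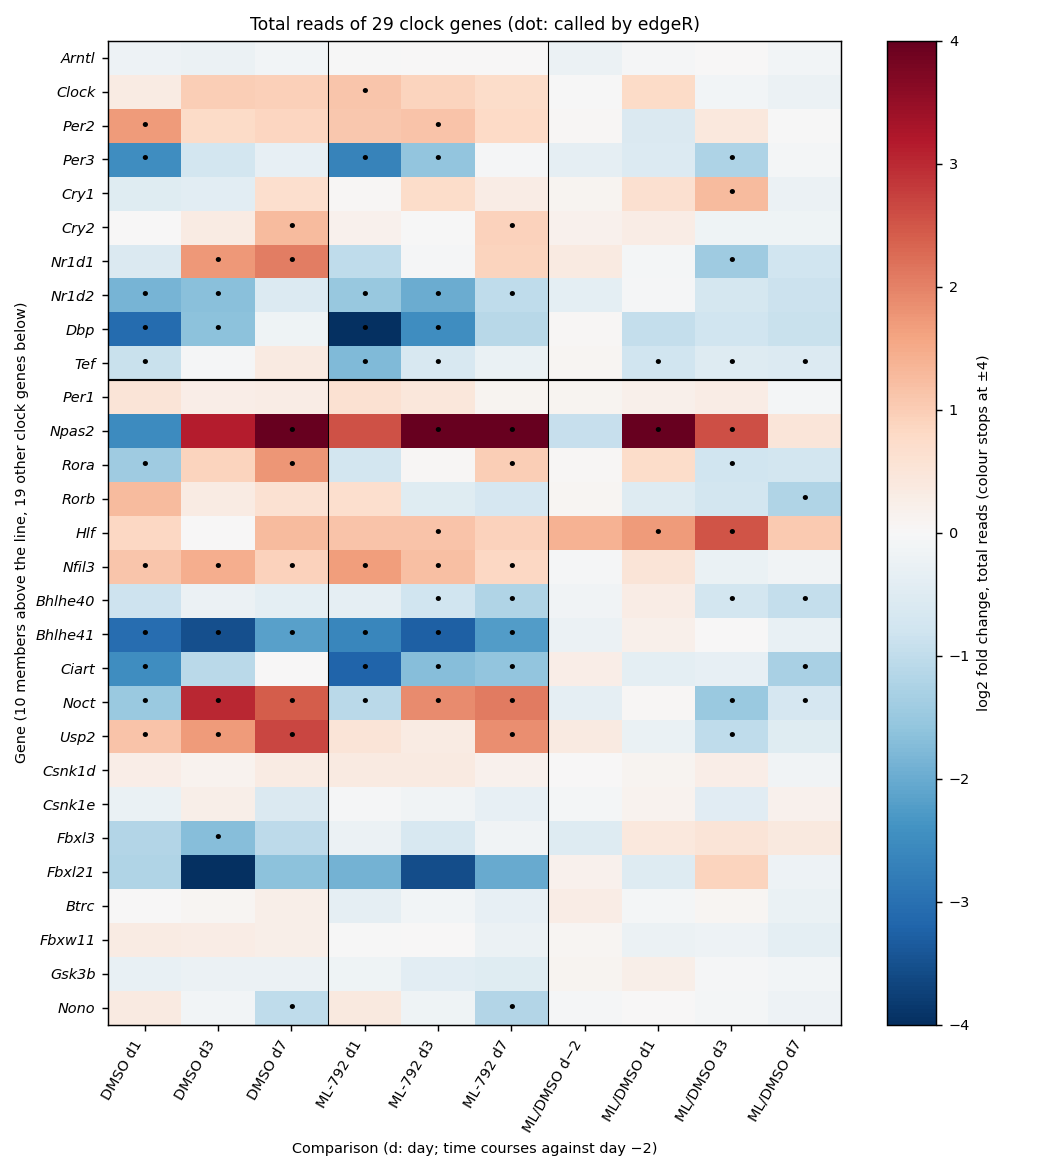
Log2 fold change of total reads (colour, stopped at ±4) for the 10 members above the line and 19 other clock genes below it, in each time course against day −2 and between ML-792 and DMSO at each day; dots mark called genes. Arntl has no dot, Per3, Nr1d2, Dbp and Tef are blue at day 1 in both courses, and Tef has a dot at days 1, 3 and 7 of the treatment columns.

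Over the 24 libraries, the genes most like Nr1d1 in log2 total counts, of 13330 others, were Kcnk3 (Pearson r = 0.955), Slc25a1 (0.95) and Slc2a8 (0.943). For Arntl they were Tmem251 (0.703), Arcn1 (0.7) and Wasl (0.685). The points share library and depth.

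Opposite-strand genes overlap the entries of Dbp (Sphk2) and Nr1d1 (Thra). The wider Sphk2 entry covers all of the Dbp entry and held on average 51.4 reads more than the narrower one beside it, at most 82, where Dbp held 362. In 21 of 24 libraries this surplus was below the Dbp count, and the strand setting of the counting is not given in the sources used here. No Thra entry shares bases with that of Nr1d1.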

How the data were processed

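Per the labels and the study's methods, 3T3-L1 RNA was alkylated, made into QuantSeq 3′ libraries (FWD kit), demultiplexed with bcl2fastq 2.17.1.14 and mapped with the SlamDunk pipeline to mm10, where reads were counted on RefSeq 3′UTR entries. The authors deposited raw counts of total reads and of labelled reads (at least 1 T to C conversion) per entry and library, with no normalization. Libraries were assigned by sample title, and 6 library columns per table matched no sample and were left out. The 10 members and all gene lists were chosen with earlier results of these data known.

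From the deposited counts, entries were kept with edgeR's filterByExpr (minimum count 10, minimum total 15), which left 26563 entries for total and 10589 for labelled reads. TMM factors and library sizes of the total reads scaled both. Normalized counts are scaled to the mean effective library size of 18300638 reads, and log2 values for correlations used a prior count of 2. A robust quasi-likelihood test was run in edgeR 4.0.16 (R 4.3.3) with Benjamini-Hochberg adjustment over all entries tested, on the 12 libraries of a treatment for time courses (adjusted p under 0.01) and on all 24 for ML-792 against DMSO and the interaction (adjusted p under 0.1). Standard errors were derived from the F statistic. Labelled shares were tested by a two-sided exact permutation test with SciPy over genes with at least 200 reads in every library. Other genes were named from a list of 19 clock genes where called (1 gene of the planned list is not reported here), and the 3 genes most like Arntl and Nr1d1 by Pearson correlation. The edgeR step was tested on simulated data. Alternatives were DESeq2 1.42.0, other filters, scalings and library sets, 1 entry per gene, a replicate block and leaving out each replicate. No replicate pair agreed within sampling noise.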

Additional observations from a re-analysis of the deposited data

Results flagged for a closer look

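The course of Tef differed between ML-792 and DMSO by a test of the difference itself, the interaction of day and treatment in total reads (edgeR adjusted p = 0.049). It was not called without replicate A, B or C (adjusted p = 0.47, 0.22 and 0.26).

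Clock has 25 RefSeq 3′UTR entries, of which 1 of 60 bases (chr5:76266357-76266416, mm10) lies outside the analysed one. This 60-base entry was among the entries tested in total reads but did not represent Clock in any comparison. Labelled reads made up 36.0% of its reads over the 24 libraries, between 31.2% and 38.6% in each condition, where the analysed Clock entry had at most 7.08% in a condition. At day −2 in DMSO, 101 of 276 reads were labelled. The share stayed in this range at all days, while the share of the libraries went from 3.17% to 1.03% in DMSO, and its cause was not tested. The entries outside the analysed one with the next most reads, 1827, 1682, 1595 and 892, had shares of 0.657%, 0.713%, 0.439% and 1.46%.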

How the results depend on the processing

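Of the 45 results called for the members, 9 were called under every alternative and none reversed: the fall of Per3 at day 1 in both courses and its difference between treatments at day 3, the fall of Nr1d2 at day 3 in both courses, that of Dbp at days 1 and 3 and of Tef at day 1 in ML-792, and the rise of Tef from day 1 to day 3 in ML-792. Leaving out 1 replicate moved the number of members called from 7 to between 2 and 7 in the DMSO course (2 without replicate A), from 7 to between 4 and 8 in the ML-792 course and from 4 to between 1 and 6 for ML-792 against DMSO in total reads, and from 1 to between 0 and 2 for the interaction. In labelled reads it moved them from 1 to between 0 and 2, from 4 to between 0 and 4, and from 1 to between 0 and 0, with the interaction staying at 0 and 0. For the labelled share it gave 0 and 0 in place of 2, where 2 libraries against 6 leave few distinct splits and so limit how low p can go.

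The share of all entries called was not kept for the alternatives, the block below included, so member counts under them have none beside them. With no filter on low counts, 7 members were called between treatments, 3 in the interaction and 0 between treatments in labelled reads. DESeq2 called 3 in the interaction, 2 between treatments in labelled reads and 1 in their interaction. In DMSO labelled reads, keeping entries with at least 10 reads over the libraries called 3 and fitting all 24 libraries 2. Scaling by labelled reads left 0 in ML-792, and the share divided by the library share left 0. Settings other than a left-out replicate also ended the calls of Clock at day 1, Nr1d2 at day 7 (also upper quartile) and Dbp from day 1 to 3 in ML-792 (all 24 libraries), Per3 from day 1 to 3 in ML-792 (both filters, upper quartile), Dbp at day 3 in DMSO (at least 10 reads), and Tef between treatments at days 3 and 7 (no filter, 6 libraries) and in the interaction (no filter). In labelled reads they ended those of Nr1d2 at days 1 and 3 in DMSO (no filter, labelled scaling, and at day 1 the block below), Nr1d2 at day 3 in ML-792 (no filter, all 24, labelled scaling), Cry1, Nr1d1 and Tef at day 1 (labelled scaling) and Tef at day 7 (both filters, labelled scaling) in ML-792, and Tef between treatments at day 7 (no filter). The causes were not tested.

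Whether the replicate letter pairs libraries is not stated. Deviations of same-letter libraries correlated by 0.191 on average and by −0.18 at the lowest, with 68 of 84 pairs over 0.1, and 23 of 24 libraries correlated best with their own letter, a hint from the data only. With the letter as a replicate block, 7 members were called between treatments, Dbp (−0.93, −0.75 and −0.93 at days 1, 3 and 7), Nr1d2 and Per2 among them, 6 in the interaction (Per2, Per3, Cry1, Nr1d1, Dbp and Tef) and 2 between treatments in labelled reads (Per2, edgeR adjusted p = 0.073, and Tef), with 7 and 9 in the DMSO and ML-792 courses in total reads, 1 and 4 in labelled reads, and 0 in the labelled interaction. Labelled reads were at most 64 per member and library.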
